A study of Homo sapiens with 12 samples.

Results

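The genes described here make up the cell's thiol and oxidant defence: glutathione synthesis and use, the targets and regulators of the transcription factor NRF2 (gene NFE2L2), and selenoproteins. A fixed list names 42 genes, each read by its probe set with a single gene symbol and the highest mean over the arrays. Of these, 40 were measured among 19775 genes. PRDX5 and AKR1B1 had no single-symbol probe set in the annotation used and are not analysed here. The cells are IGROV-1, an established human ovarian cancer line, profiled on 12 Affymetrix expression arrays in 4 groups of 3. Parental cells carried no plasmid. Mock cells carried a plasmid with a scrambled hairpin RNA and were kept as a pool of clones. The groups shCXCR4_I and shCXCR4_II, called clone I and clone II below, each carried a plasmid with a different short hairpin RNA against the chemokine receptor gene CXCR4 and came from selected individual clones. The labels do not say whether each of these groups is a single clone or several, so "clone" here names the group, and arrays of one group may not share a clone. Mock and both clones had passed through lipid transfection and puromycin at 4 µg/ml for 30 days, and Parental cells had not. Because each hairpin is represented by selected clones, the effect of the hairpin and the clone's own origin cannot be told apart, and transfection and puromycin cannot be told apart in Mock against Parental. No label gives separate cultures for the arrays of a group, so p-values measure the spread between arrays, which may be technical.

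NRF2 is held in the cytoplasm by KEAP1, which presents it for degradation. When KEAP1 is modified by electrophiles or oxidants, NRF2 enters the nucleus, pairs with a small MAF protein such as MAFG and binds antioxidant response elements near genes for glutathione synthesis, thioredoxin reduction, NADPH supply and carbonyl or quinone reduction. Selenoproteins, among them several glutathione peroxidases and the thioredoxin reductases, carry selenocysteine at or near the active site. In ovarian carcinoma cells these systems are known for handling platinum drugs and other electrophiles.

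RefSeq promoter windows (GRCh38.p14, 250 bases before to 50 after the annotated start) were searched for the core of the antioxidant response element, TGACNNNGC, on both strands. The tables held windows for 34 members, and 11 of these (32.4%) had the core, as did 16.1% of all 27305 genes with a window. Counted by window, it was 26.1% of 46 member windows and 13.3% of all 35116. The core can contain the AP-1 site TGACTCA, which reads TGAGTCA on the opposite strand, and it did so in GSTP1 and ME1. A match describes letters in a window and is no evidence of binding. A window without the core does not show that the gene lacks it, as bases further out were not searched. The stretches below are those of members whose values are given in full further on, written in the gene's own direction with the core in capitals (GCNNNGTCA where it lies on the opposite strand). Matches that span or follow the start, further ones in TXNRD1 and ME1 and the only one in MGST1, are not printed.
GPX2, chr14:64942849-64942877, minus strand: acctgtttttGCTAAGTCAtcctggggat
TXNRD1, chr12:104215670-104215698, plus strand: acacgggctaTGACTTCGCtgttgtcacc
TXNRD1, chr12:104286920-104286948, plus strand: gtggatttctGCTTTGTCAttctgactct
EPHX1, chr1:225825266-225825294, plus strand: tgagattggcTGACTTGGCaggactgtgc
ME1, chr6:83431170-83431198, minus strand: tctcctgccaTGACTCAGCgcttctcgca
GCLM, chr1:93909446-93909474, minus strand: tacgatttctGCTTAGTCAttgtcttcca
SELENOP, chr5:42811973-42812001, minus strand: tgctctgcttGCAAGGTCActgcaagaat
Of the 5 genes called alike in both clones against Mock, 4 are in this list: GPX2, TXNRD1 and EPHX1, which were higher, and ME1, which was lower. The fifth, AKR1B10, had no window, nor had GSS, GSR, PRDX1, PRDX6, MGST2, HMOX1 and SOD1. KEAP1, GSTP1, PGD, SELENOK and MGST1 also held the core. GSTM3, AKR1C3 and NQO1, whose values are also given on every array, had windows without it. The share to set beside these genes is the 32.4% of members with a window, and a link between the core and the calls was not tested. The full 250 bases before the start are shown for GPX2, the member that was higher by the most in both clones against Mock, and for ME1, the member that was lower in both clones against both controls.
GPX2, chr14:64942746-64942995, minus strand: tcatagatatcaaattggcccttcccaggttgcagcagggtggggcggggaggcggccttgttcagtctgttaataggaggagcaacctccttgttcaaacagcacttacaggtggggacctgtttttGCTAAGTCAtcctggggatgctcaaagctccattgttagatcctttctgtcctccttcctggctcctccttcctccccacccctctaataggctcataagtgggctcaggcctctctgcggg
ME1, chr6:83431052-83431301, minus strand: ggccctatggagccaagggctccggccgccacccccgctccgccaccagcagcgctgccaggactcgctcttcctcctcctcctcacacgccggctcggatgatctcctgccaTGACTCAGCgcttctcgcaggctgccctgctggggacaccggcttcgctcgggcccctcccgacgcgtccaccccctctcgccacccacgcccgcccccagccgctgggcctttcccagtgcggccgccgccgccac

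The gene for NRF2 itself did not pass the test in any comparison, and most of the enzymes did not pass in any given comparison. A gene was called where limma's Benjamini-Hochberg adjusted p, taken over all 19775 genes, was under 0.05. In clone I against Mock 9 of 40 members were called, 5 higher and 4 lower, where 23.6% of all genes were called (9.97% higher and 13.6% lower). In clone II against Mock 11 were called, 5 higher and 6 lower, beside 26.1% of all genes (11.0% and 15.1%). Mock against Parental gave 10 calls, 1 higher and 9 lower, beside 15.0% (9.78% and 5.23%). Clone I against Parental gave 4 higher and 8 lower, beside 16.8% (8.25% and 8.56%). Clone II against Parental gave 4 higher and 9 lower, beside 17.0% (7.47% and 9.48%). Clone I against clone II gave 4 higher and 1 lower, beside 7.15% (4.66% and 2.48%). Clone comparisons with one control share its 3 arrays, and Mock against Parental shares arrays with all of them. The balance of directions depended on further scaling of the arrays. Of all called genes, 42.2% were higher in clone I against Mock with the deposited RMA values. The share was 53.7% with quantile normalization of these values and 23.8% with centring on array medians. In clone II the shares were 42.2%, 54.6% and 21.3%. The split was 65.2%, 54.8% and 75.2% in Mock against Parental, 49.1%, 55.4% and 41.0% in clone I against Parental, 44.1%, 53.6% and 31.1% in clone II against Parental, and 65.3%, 59.2% and 71.7% between the clones. After quantile normalization 9 members were higher and 3 lower in clone I against Mock, and 9 and 5 in clone II.

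Members are mostly bright, and bright genes were called more often. Of the 35 members with a mean log2 value of at least 6, 7 were called in clone I against Mock and 8 in clone II against Mock, where 37.2% and 37.1% of the 8348 genes that bright were called. The same counts were 8 in Mock against Parental (25.2% of bright genes), 11 in clone I against Parental (29.7%), 9 in clone II against Parental (27.7%) and 4 between the clones (12.9%). The members' median log2 difference was 0.03 in clone I and 0.01 in clone II against Mock, and -0.02 in Mock against Parental, beside 0.02, 0.02 and 0.00 over all genes. In all, 23 members were called in at least 1 of the 6 comparisons. Only 7 of them reached 1.5-fold with a call anywhere (GPX2, SELENOP, GSTM3, GCLM, HMOX1, AKR1B10 and AKR1C3), and GPX2, SELENOP and AKR1C3 reached 2-fold. The 17 members with no call were NFE2L2, GCLC, GSS, SRXN1, PRDX2, PRDX3, PRDX4, PRDX6, GPX3, GPX4, SELENOS, SELENOK, SELENOT, MGST1, TALDO1, TKT and SOD1.

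Against Mock, GPX2, TXNRD1 and EPHX1 were called higher in both clones (3 members, beside 5.59% of all genes) and ME1 and AKR1B10 lower (2 members, beside 9.20%). Against Parental, GSTM3 was called higher in both clones (4.14% of all genes) and AKR1C3, GCLM, GSR, HMOX1, MAFG and ME1 lower (6 members, beside 5.51%). The count of 3 higher against Mock fell to 1 without Mock replicate 1, and the count of 2 lower fell to 1 without Mock replicate 2. Across all 4 of these comparisons, ME1 was lower (3.10% of all genes) and no member was higher (1.48%). Of the 7 members called in both clones against Parental, all but ME1 were also called that way in Mock against Parental: GSTM3 higher (1.95% of all genes) and 5 lower (1.88%). The 3 comparisons share the Parental arrays.

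**Figure D1:**
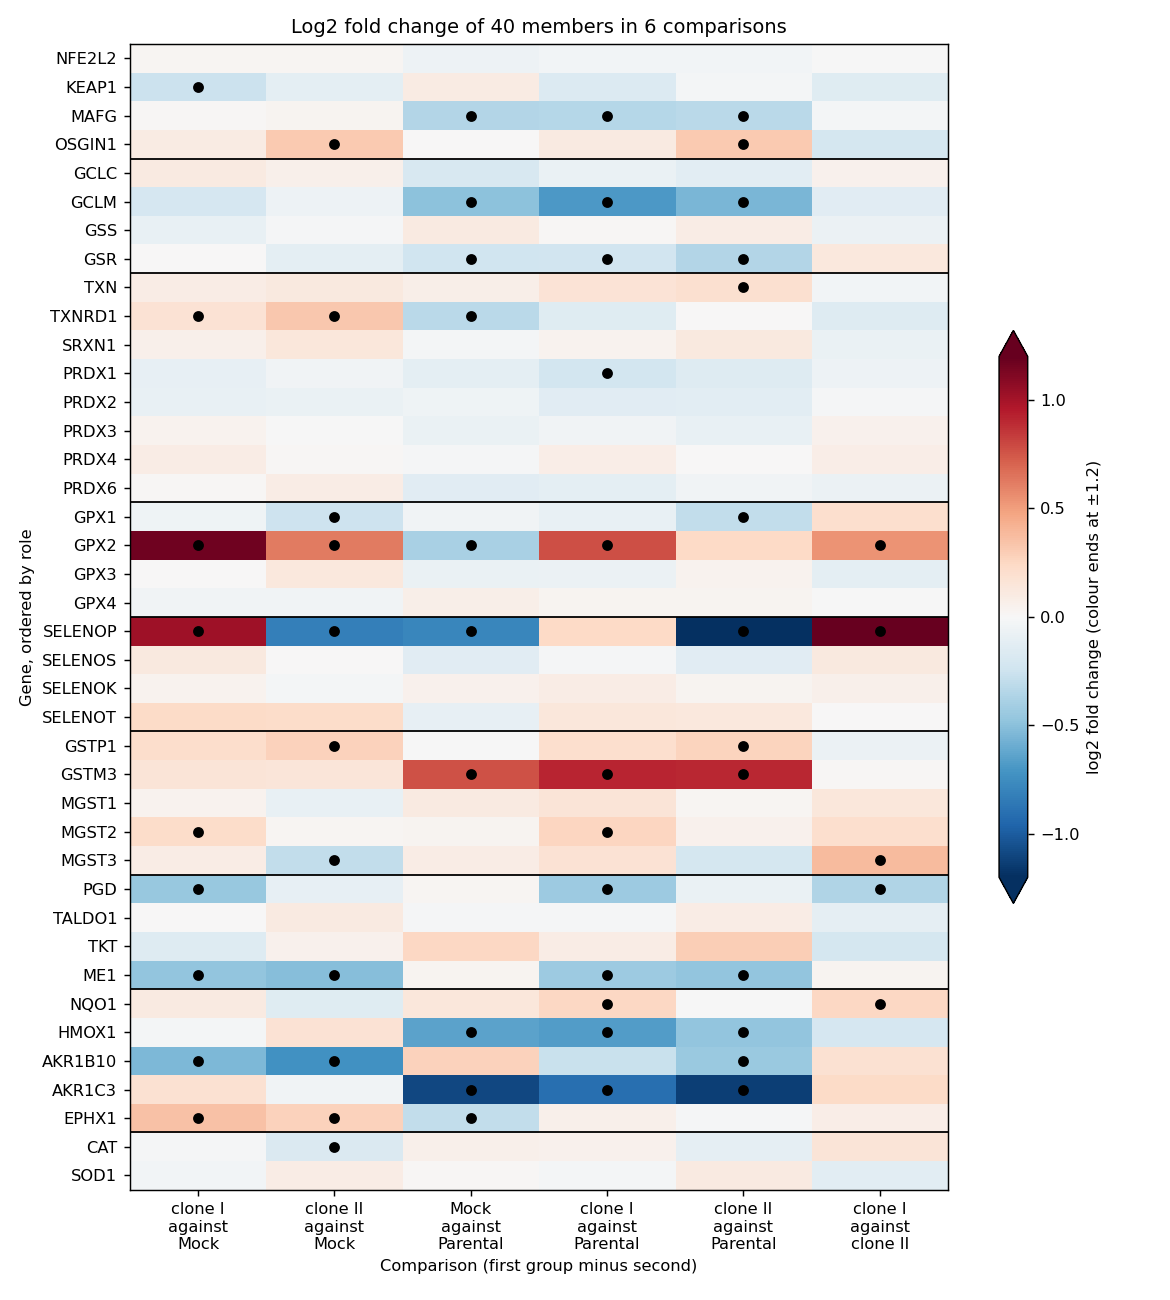
Log2 fold change of the 40 measured members (rows, grouped by role) in 6 comparisons (columns), with red for higher and blue for lower in the first group named and a dot where limma's adjusted p was under 0.05. GCLM, HMOX1 and AKR1C3 are blue and GSTM3 is red in the 3 comparisons with Parental, while SELENOP is red in clone I and blue in clone II against Mock.

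Among the controllers of NRF2, with OSGIN1 listed beside them, the factor's own gene was level. NFE2L2 read 9.38, 9.38 and 9.45 on the Parental arrays, 9.34, 9.31 and 9.38 on the Mock arrays, 9.36, 9.44 and 9.31 on the clone I arrays and 9.29, 9.36 and 9.46 on the clone II arrays (log2 RMA values, as for all array values here). The ranges of Mock and of each clone overlapped. KEAP1, the inhibitor, was lower in clone I than in Mock by a log2 difference of -0.26 (SE 0.06, limma adjusted p = 0.00462), and its call ended under quantile normalization (-0.15, adjusted p = 0.0614). OSGIN1, an oxidative stress-induced growth inhibitor, was higher in clone II than in Mock by 0.31 (SE 0.08, limma adjusted p = 0.0121) and higher than in Parental by 0.32, the latter call ending without Parental replicate 3 (adjusted p = 0.0696) or clone II replicate 1 (adjusted p = 0.0536). MAFG, the small MAF partner, was lower than in Parental in Mock (-0.35, limma adjusted p = 0.0131), clone I (-0.34, 0.0132) and clone II (-0.32, 0.0193). All 3 MAFG calls ended with the mean of its probe sets (adjusted p = 0.12, 0.16 and 0.43) and without Parental replicate 2 (0.0517, 0.0525 and 0.0728). Mock replicate 2 (0.0605), clone I replicate 3 (0.0683), Parental replicate 1 (0.0506) and clone II replicates 2 (0.0558) and 3 (0.0511) each also ended a MAFG call when left out.

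In glutathione synthesis, the modifier subunit of glutamate-cysteine ligase was lower wherever cells had been transfected and selected, and the catalytic subunit did not pass the test. GCLM, the modifier subunit, read 9.90, 10.00 and 9.93 in Parental, 9.45, 9.56 and 9.35 in Mock, 9.21, 9.27 and 9.28 in clone I and 9.24, 9.34 and 9.59 in clone II. Every Parental array lay above the 9 others. The log2 difference from Parental was -0.49 in Mock (SE 0.08, limma adjusted p = 0.00156), -0.69 in clone I (adjusted p = 7.14e-05) and -0.55 in clone II (adjusted p = 0.000535). Its other probe sets were called lower as well, at -0.67 and -0.80 in Mock against Parental. Neither clone differed from Mock past the test (-0.20 and -0.06). GCLC, the catalytic subunit, ran from 7.58 to 7.92 over all 12 arrays, and GSS, glutathione synthetase, from 8.82 to 9.07. GSR, which regenerates reduced glutathione with NADPH, read 8.58, 8.60 and 8.67 in Parental and 8.16 to 8.48 in the 3 other groups, with no overlap. GSR was lower than in Parental by -0.23 in Mock (limma adjusted p = 0.0295), -0.23 in clone I (0.0285) and -0.35 in clone II (0.00233). The clone I call for GSR ended without any one of its 6 arrays (adjusted p 0.0522 to 0.114), and the Mock call ended without any of them but Mock replicate 2 (0.0567 to 0.115). The mean of the probe sets ended the calls in clone I (0.113) and clone II (0.0838), and quantile normalization also ended the one in clone I (0.0619). Centring on the array median (0.0994) and a fit of the compared groups alone (0.0507) ended the one in Mock.

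**Figure D2:**
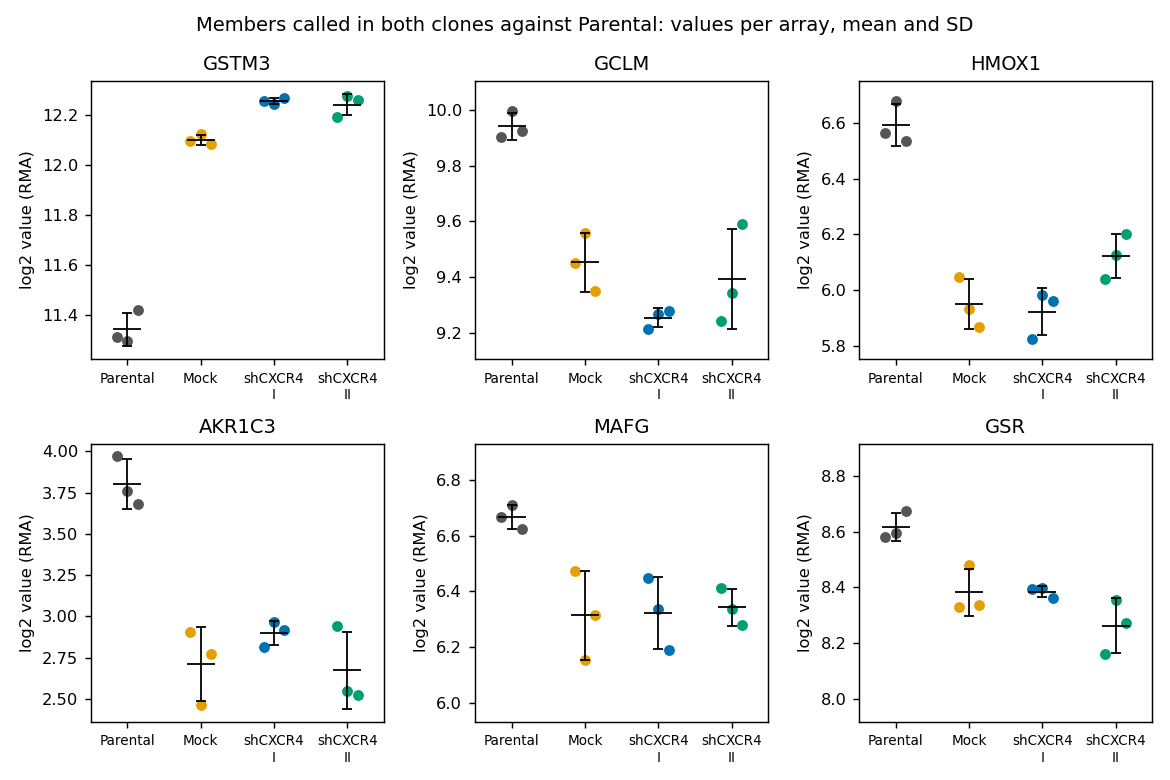
Log2 RMA value on each array (points) with mean and SD (bars) in 4 groups of 3 for 6 members called in the same direction in Mock, clone I and clone II against Parental, each panel on its own axis, not starting at 0. In each panel the Parental arrays stand apart: GSTM3 at 11.30 to 11.42 lies below the other arrays, and GCLM at 9.90 to 10.00 and HMOX1 at 6.54 to 6.68 lie above them.

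Of the thioredoxin system, thioredoxin reductase 1 was the only measured member called against Mock, and it was lowest in Mock. TXNRD1, the selenoenzyme that reduces thioredoxin, read 10.42, 10.44 and 10.39 in Mock, 10.73, 10.71 and 10.78 in Parental, 10.57, 10.63 and 10.58 in clone I and 10.80, 10.71 and 10.71 in clone II. All 3 Mock arrays lay below every other array, and clone II overlapped Parental. The log2 difference from Mock was 0.33 in clone II (SE 0.06, limma adjusted p = 0.000912) and 0.17 in clone I (adjusted p = 0.0357), and Mock was below Parental by -0.32 (adjusted p = 0.00143). The clone I call ended without any one of the 6 arrays (adjusted p 0.0655 to 0.119) and under 6 other settings, among them centring on the array median (0.218). Averaging its probe sets, one of which had a mean of 1.76, ended the clone II (0.0854), clone I (0.185) and Mock (0.22) calls. TXN, thioredoxin itself, was higher in clone II than in Parental by 0.19 (limma adjusted p = 0.0359), a call lost without any one Parental array (0.0619 to 0.131) or clone II replicates 2 and 3 (0.0826 and 0.0809) and in 5 other settings (0.0523 to 0.946), and of the opposite sign by its probe set without cross-hybridisation suffix (-0.17, 0.511). PRDX1, a thioredoxin-dependent peroxidase, was lower in clone I than in Parental by -0.22 (0.0155), a call lost without Parental replicates 1 (0.0501) and 3 (0.0549) or clone I replicates 1 (0.0676) and 2 (0.0636). The other peroxiredoxins and SRXN1, which repairs overoxidised peroxiredoxins, had no call. Their ranges over the 12 arrays were 11.14 to 11.38 for PRDX2, 10.63 to 10.87 for PRDX3, 11.04 to 11.25 for PRDX4, 11.62 to 11.82 for PRDX6 and 9.28 to 9.54 for SRXN1.

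Glutathione peroxidase 2 showed the largest rise of any member against Mock. GPX2, a selenium-dependent peroxidase best known from gut epithelium, read 6.16, 5.94 and 5.81 in Mock, 6.37, 6.29 and 6.42 in Parental, 7.01, 7.12 and 7.27 in clone I and 6.49, 6.72 and 6.57 in clone II. The 4 groups did not overlap, in the order Mock, Parental, clone II, clone I. Against Mock, GPX2 was 2.24-fold higher in clone I (log2 difference 1.16, SE 0.10, limma adjusted p = 1.94e-06) and 1.54-fold higher in clone II (0.63, SE 0.10, adjusted p = 0.000455). By size it stood 108th among the 4670 genes called in clone I against Mock. Against Parental the difference was 0.78 in clone I (adjusted p = 7.19e-05) and 0.24 in clone II, which did not pass. Mock was below Parental by -0.39 (adjusted p = 0.0146), a call lost without Mock replicates 2 (0.0501) or 3 (0.0663) or Parental replicate 3 (0.0593). Averaging GPX2 with its second probe set, whose mean of 2.52 was dim, ended that call (0.381).

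The other glutathione peroxidases moved less. GPX1, the widely expressed cytosolic peroxidase, read 10.15, 10.18 and 10.23 in clone II, below its range of 10.33 to 10.52 on the 9 other arrays. It was lower in clone II than in Mock by -0.25 (SE 0.06, limma adjusted p = 0.00654) and than in Parental by -0.29 (adjusted p = 0.00286). GPX4, which reduces lipid hydroperoxides in membranes, ran from 10.53 to 10.83 with no call. GPX3, the secreted form, was below the array median on every array, at 3.09 to 3.51.

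**Figure D3:**
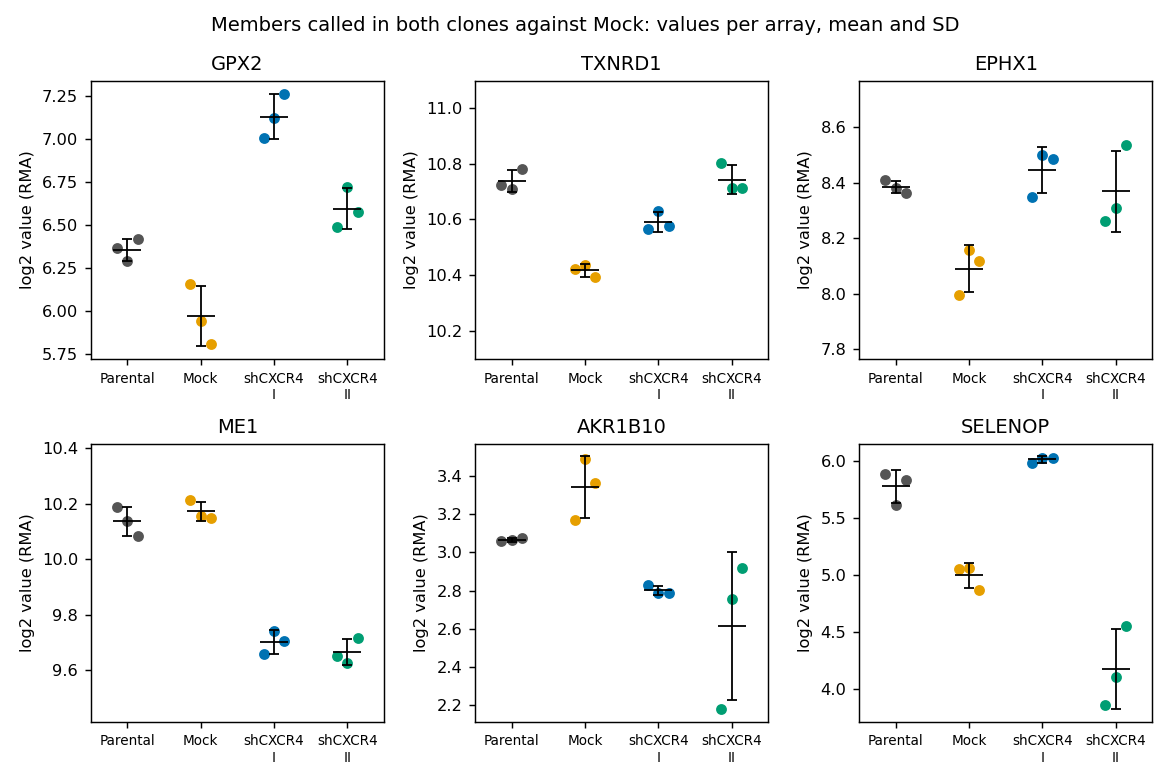
Log2 RMA value on each array (points) with mean and SD (bars) in 4 groups of 3 for the 5 members called alike in both clones against Mock and for SELENOP, called in opposite directions, each panel on its own axis, not starting at 0. ME1 is lower in both clones than in Parental and Mock, whereas TXNRD1 and EPHX1 in Parental lie nearer the clones than Mock does.

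Selenoprotein P separated the clones more than any other gene measured. SELENOP, the secreted selenium carrier, read 5.99, 6.03 and 6.03 in clone I, 3.86, 4.11 and 4.56 in clone II, 5.06, 5.07 and 4.88 in Mock and 5.89, 5.61 and 5.83 in Parental. The order of the groups, with no overlap, was clone I, Parental, Mock and clone II. Clone I was 2.02-fold above Mock (log2 difference 1.02, SE 0.13, limma adjusted p = 0.00012), and clone II was at 56.5% of Mock (-0.82, adjusted p = 0.000764). The difference between the clones was 1.84 (adjusted p = 3.38e-06), ranked 1 by size of 1413 genes called between them. Mock was below Parental by -0.78 (adjusted p = 0.00154) and clone II by -1.60 (adjusted p = 2.44e-06), while clone I differed from Parental by 0.24, which did not pass. On clone II replicates 1 and 2 SELENOP fell below the array medians of 4.39 and 4.35, so the lower side of the clone difference was dim. All of these calls rest on 1 probe set: the others for the gene, with means of 1.91 and 2.21, were not called. With these in its place, Mock against Parental was 0.12 (adjusted p = 0.547) and clone I against clone II 0.13 (0.601). The remaining selenoproteins listed, SELENOS and SELENOK of the endoplasmic reticulum's protein degradation machinery and SELENOT, had no call, with ranges of 8.66 to 8.87, 8.80 to 9.03 and 9.60 to 10.11.

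Among glutathione transferases, GSTM3 was higher in all plasmid-carrying cells than in Parental. The probe sets of 3 mu class relatives, which may share signal, read higher in both clones than in either control. GSTM3 read 11.31, 11.30 and 11.42 in Parental, 12.10, 12.12 and 12.08 in Mock, 12.26, 12.24 and 12.27 in clone I and 12.19, 12.28 and 12.26 in clone II. Parental arrays lay below all others, and Mock lay below both clones. Against Parental the rise was 1.69-fold in Mock (log2 difference 0.76, SE 0.06, limma adjusted p = 9.21e-07), 1.88-fold in clone I (0.91, adjusted p = 1.17e-07) and 1.87-fold in clone II (0.90, adjusted p = 1.42e-07). Its second probe set was called too, at 0.41, 0.45 and 0.49. The further steps from Mock to clone I (0.16) and clone II (0.14) did not pass.

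GSTM4, a mu class relative that is no member of the list, read 7.07, 7.06 and 6.94 in Parental, 7.09, 7.33 and 7.10 in Mock, 7.64, 7.81 and 7.77 in clone I and 7.95, 8.04 and 8.17 in clone II. Mock lay just above Parental, and both clones lay above all of these arrays. GSTM4 was higher than in Mock by 0.57 in clone I (SE 0.08, limma adjusted p = 0.000245) and by 0.88 in clone II (adjusted p = 6.43e-06), and Mock differed from Parental by 0.15 (adjusted p = 0.245). Against Parental it was higher by 0.72 in clone I and 1.03 in clone II (adjusted p = 3.69e-05 and 1.46e-06). GSTM2 rose by 0.44 and 0.70 against Mock (adjusted p = 0.000278 and 5.84e-06), and GSTM1, included after its values were seen, by 0.42 and 0.67 (0.00172 and 4.71e-05). Both were called against Parental as well (0.45 and 0.71 for GSTM2, 0.45 and 0.70 for GSTM1). These probe sets can pick up each other's near-identical transcripts, so the division between GSTM1, GSTM2 and GSTM4 is uncertain. The difference of pattern between GSTM3 and these genes was not tested.

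**Figure D4:**
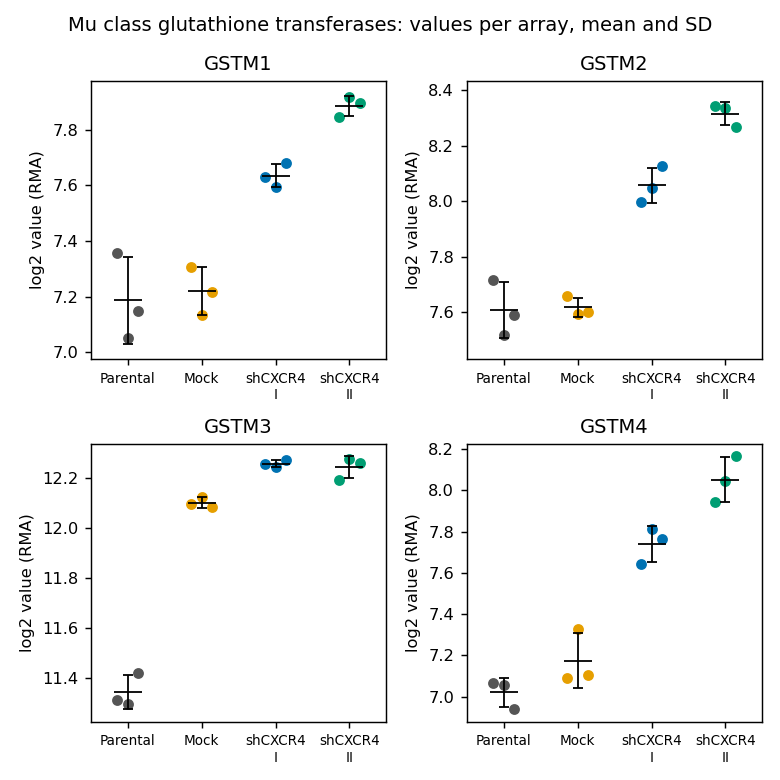
Log2 RMA value on each array (points) with mean and SD (bars) in 4 groups of 3 for GSTM3 and 3 other mu class transferases, each panel on its own axis, not starting at 0. The probe sets of GSTM1, GSTM2 and GSTM4, which may share signal, lie at like levels in Parental and Mock and higher in both clones. GSTM3 is already higher in Mock (12.08 to 12.12) than in Parental (11.30 to 11.42).

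GSTP1, the pi class transferase abundant in many carcinomas, was higher in clone II than in Mock by 0.28 (SE 0.07, limma adjusted p = 0.015) and than in Parental by 0.27 (0.0237). Both GSTP1 calls ended under centring (0.0946 and 0.0811) and in a fit of the compared groups alone (0.0689 and 0.0635). They also ended without single arrays: Mock replicate 1 (0.0548), and any one Parental array (0.0567 to 0.0817) or clone II replicate 3 (0.061). Of the membrane-bound transferases, MGST2 was higher in clone I than in Mock by 0.22 (0.0164) and than in Parental by 0.26 (0.00943). Centring (0.104) ended the MGST2 call against Mock, as did leaving out Mock replicate 1 (0.0616), clone I replicate 1 (0.0616) or clone I replicate 3 (0.0631). MGST3 read 10.83, 10.71 and 10.89 in clone II and 10.99 to 11.23 elsewhere. It was lower in clone II than in Mock by -0.30 (0.00682) and higher in clone I than in clone II by 0.38 (0.00436), and neither call held without _x_at and _s_at probe sets, which hybridise to several transcripts (-0.14 and 0.256, and 0.22 and 0.16). The mean of the probe sets also ended the clone II call (-0.10, 0.175). MGST1 ran from 10.72 to 10.94 with no call.

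Malic enzyme was the NADPH source that separated both clones from both controls. ME1, the cytosolic malic enzyme, read 9.66, 9.74 and 9.71 in clone I, 9.65, 9.63 and 9.72 in clone II, 10.21, 10.15 and 10.15 in Mock and 10.19, 10.14 and 10.08 in Parental. The 6 clone arrays all lay below the 6 control arrays, and within each set the groups overlapped. Clone I was at 72.2% of Mock (log2 difference -0.47, SE 0.06, limma adjusted p = 5.56e-05) and clone II at 70.4% (-0.51, adjusted p = 3.41e-05). Against Parental the differences were -0.43 (adjusted p = 0.000118) and -0.47 (adjusted p = 6.79e-05), and Mock differed from Parental by 0.04. A second probe set gave calls in both clones against Mock as well (-0.53 and -0.69), and the remaining probe set gave none in either. No array left out ended any of these 4 calls. PGD, of the oxidative pentose phosphate branch, read 9.21, 9.35 and 9.31 in clone I and 9.55 to 9.87 elsewhere. It was lower in clone I than in Mock by -0.46 (adjusted p = 0.00111), than in Parental by -0.43 (0.00181) and than in clone II by -0.36 (0.0158). The mean of the PGD probe sets ended all 3 calls (0.408, 0.185 and 0.23), and the last also ended without clone I replicate 1 (0.0758). TALDO1 and TKT, of the non-oxidative branch, had no call. TKT's probe sets disagreed: the representative gave 0.05 in clone II against Mock, and another gave -0.40 (adjusted p = 0.00272 over all probe sets).

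Among the enzymes that handle quinones, carbonyls, haem and epoxides, haem oxygenase and AKR1C3 were lower in all plasmid-carrying cells than in Parental. HMOX1, which degrades haem, read 6.56, 6.68 and 6.54 in Parental, 6.05, 5.93 and 5.87 in Mock, 5.82, 5.98 and 5.96 in clone I and 6.04, 6.12 and 6.20 in clone II. Parental arrays lay above all others, while Mock overlapped both clones. HMOX1 in Mock was at 64.0% of Parental (log2 difference -0.64, SE 0.07, limma adjusted p = 4.4e-05), clone I at 62.8% (-0.67, adjusted p = 2.36e-05) and clone II at 72.1% (-0.47, adjusted p = 0.000498). AKR1C3, an aldo-keto reductase of steroids and prostaglandins, read 3.97, 3.76 and 3.68 in Parental, 2.90, 2.46 and 2.77 in Mock, 2.82, 2.96 and 2.92 in clone I and 2.94, 2.55 and 2.53 in clone II. Parental again stood alone. The differences from Parental were -1.09 in Mock (SE 0.13, adjusted p = 5.99e-05), -0.90 in clone I (adjusted p = 0.000208) and -1.13 in clone II (adjusted p = 3.61e-05). AKR1C3 was below the array median on every array, so these are differences between dim readings.

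AKR1B10, a retinal and carbonyl reductase, was also dim on every array. It read 3.17, 3.49 and 3.37 in Mock, 3.06, 3.06 and 3.08 in Parental, 2.83, 2.79 and 2.79 in clone I and 2.18, 2.75 and 2.92 in clone II. Both clones lay below both controls. The difference from Mock was -0.54 in clone I (SE 0.14, limma adjusted p = 0.0146) and -0.73 in clone II (adjusted p = 0.00259). The clone I call ended without Mock replicate 2 (0.0623), and clone I against Parental did not pass the test. Clone II was below Parental by -0.45 (0.046), a call lost without any one Parental array (0.0928 to 0.112) or clone II replicates 1 (-0.23, 0.106) or 2 (0.0555), in a fit of those groups alone (0.104) and over all probe sets (0.0553).

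EPHX1, microsomal epoxide hydrolase, read 8.00, 8.16 and 8.12 in Mock, 8.41, 8.38 and 8.36 in Parental, 8.35, 8.50 and 8.49 in clone I and 8.26, 8.31 and 8.54 in clone II. Mock was below every other array, and the clones overlapped Parental. EPHX1 was higher than in Mock by 0.35 in clone I (SE 0.08, limma adjusted p = 0.00503) and by 0.28 in clone II (adjusted p = 0.0189), and Mock was below Parental by -0.29 (adjusted p = 0.0212). Centring ended the clone II (0.106) and Mock (0.0643) calls. So did leaving out Mock replicate 1 (0.0664 and 0.075), clone II replicate 3 for the first (0.0526), any one Parental array for the second (0.053 to 0.0698), and a fit of the groups alone for the first (0.0695). NQO1, the quinone reductase often used as a readout of NRF2, read 10.83, 10.99 and 10.95 in clone I, 10.60, 10.62 and 10.79 in clone II, 10.80, 10.88 and 10.78 in Mock and 10.70, 10.66 and 10.67 in Parental. Neither clone passed against Mock, at 0.10 and -0.15. NQO1 was higher in clone I than in clone II by 0.25 (0.0387) and than in Parental by 0.25 (0.0223). The NQO1 call between clones ended without clone I replicates 2 (0.156) or 3 (0.123) or clone II replicates 1 (0.122) or 2 (0.13), and in 4 other settings (0.0557 to 0.13). The call against Parental ended under centring (0.071) and without Parental replicates 2 (0.0761) or 3 (0.0671) or clone I replicates 2 (0.097) or 3 (0.0799). CAT, catalase, was lower in clone II than in Mock by -0.17 (0.0376), lost in 6 other settings (0.0572 to 0.297) and without any one Mock array (0.0523 to 0.12) or clone II replicate 2 (0.132). SOD1 ran from 11.43 to 11.65 with no call.

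A total of 5 of 40 members differed between the clones, beside 7.15% of all genes and 12.9% of the bright ones. Beside SELENOP these were GPX2 (0.54, SE 0.10, limma adjusted p = 0.00419) and, at smaller sizes, MGST3, PGD and NQO1 with the values above. Averaging the GPX2 probe sets ended that call (0.25, adjusted p = 0.13). Levels of ovarian epithelial markers also differed between the clones. The mean log2 value over 9 markers was 8.06 to 8.07 on the clone I arrays and 7.68 to 7.78 on the clone II arrays. Of the 9 markers, 5 were called higher in clone I, beside 4.66% of all genes. The markers' part in the members' differences was not tested. In such bulk RNA, fewer cells of a kind and less RNA per cell cannot be told apart.

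**Figure D5:**
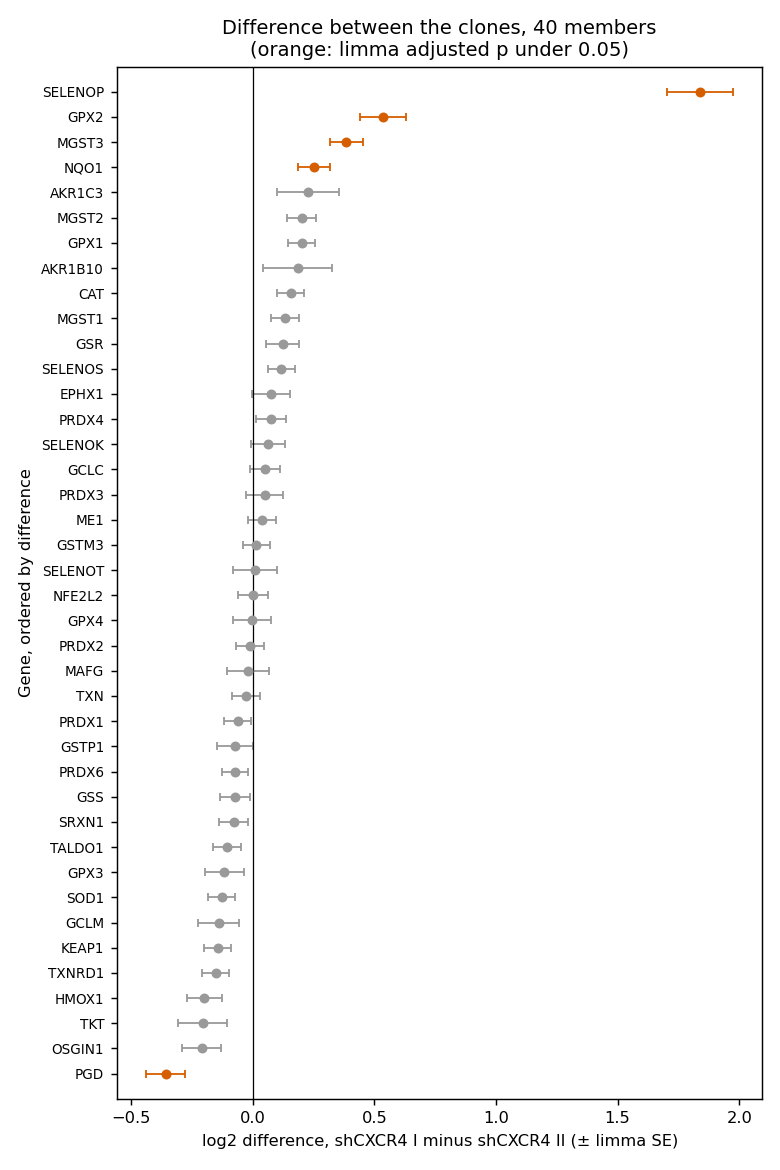
Log2 difference of clone I minus clone II (horizontal axis) with limma's SE (bars) for each of the 40 measured members, ordered by difference, with orange for an adjusted p under 0.05. SELENOP lies far to the right at 1.84, GPX2, MGST3 and NQO1 lie at 0.54, 0.38 and 0.25, and PGD lies to the left at -0.36.

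Further genes of the same pathways, 81 measured of 86 listed, were read beside the members. Of these, 16 were higher and 13 lower in clone I against Mock, 16 and 14 in clone II against Mock, and 7 and 15 in Mock against Parental. Over all genes the shares higher and lower were 9.97% and 13.6%, 11.0% and 15.1%, and 9.78% and 5.23% in these comparisons, and the lists below are to be read beside them. Among 7 other controllers of NRF2, 1 rose and 1 fell in clone I, 1 fell in clone II and 2 fell in Mock against Parental. MAFF, a small MAF protein, read 8.47, 8.25 and 8.31 in clone I and 7.77 to 8.02 elsewhere, and it was 0.55 above Mock there (SE 0.06, limma adjusted p = 3.87e-05). CUL3, the ubiquitin ligase scaffold that works with KEAP1, fell in both clones against Mock (-0.40 and -0.25, adjusted p = 0.000103 and 0.00325), the latter call ending under quantile normalization (0.062). BACH1, a repressor at the same elements, was lower in Mock than in Parental by -0.36 (0.0112), a call that ended with the mean of its probe sets (0.201).

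Of 19 further NRF2 targets, 4 rose and 3 fell in clone I, 3 rose and 5 fell in clone II, and 6 fell with none higher in Mock against Parental, where 5.23% of all genes were lower and 9.78% higher. SLC7A11, the cystine importer, rose in clone I (0.43, SE 0.08, limma adjusted p = 0.00126). TXNIP, which binds thioredoxin, fell in clone II (-0.55, adjusted p = 0.000133). AKR1C2 and AKR1C1 fell in both clones by their representative probe sets (-0.69 and -0.67 for AKR1C2, -0.60 and -0.56 for AKR1C1), but without _x_at and _s_at probe sets AKR1C2 gave -0.05 and -0.08 and AKR1C1 0.11 and 0.14, with no call. In Mock against Parental the largest falls were those of PIR (-0.50, adjusted p = 0.000728), UGDH (-0.38, 0.00045) and the exporter ABCC3 (-0.37, 0.000887), the last lost without _x_at and _s_at probe sets (-0.06, 0.71).

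Of 23 further glutathione enzymes, 8 rose and 3 fell in each clone against Mock (9.97% and 13.6% of all genes in clone I, 11.0% and 15.1% in clone II), and 4 rose and 3 fell in Mock against Parental. CHAC1, which breaks glutathione down, read 5.07, 4.94 and 4.76 in Mock and 5.22 to 5.76 on the 9 other arrays. It was higher than in Mock by 0.62 in clone I (SE 0.09, limma adjusted p = 0.000194) and 0.71 in clone II (adjusted p = 7.89e-05), and Mock was below Parental by -0.41 (0.00561). GLRX, glutaredoxin 1, read 6.63, 6.50 and 6.33 in Parental and 5.28 to 5.82 elsewhere, and Mock was below Parental by -1.08 (adjusted p = 2.77e-06). GLRX5, a mitochondrial glutaredoxin of iron-sulphur cluster assembly, was higher in Mock than in Parental by 0.32 (0.00183).

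Of 13 thioredoxin, sulfoxide and superoxide enzymes, 1 rose in clone I, 2 rose and 3 fell in clone II, and 3 fell in Mock against Parental. MSRA, a methionine sulfoxide reductase, rose in both clones against Mock (0.51 and 0.40, limma adjusted p = 0.000241 and 0.00157). SESN3, a sestrin, was lower in Mock than in Parental (-0.79, 0.000178) and in clone II than in Mock (-0.59, 0.00118), the latter lost with the mean of its probe sets (0.106). These SESN3 readings were dim: 3.78 to 3.85 in clone II, below the array medians, and 4.37 to 4.45 in Mock, just above them. SOD3, the extracellular superoxide dismutase, was lower in Mock than in Parental (-0.71, 6.13e-05). Of 19 other selenoproteins and parts of the selenocysteine machinery, 2 rose and 6 fell in clone I, 3 rose and 2 fell in clone II, and 3 rose and 1 fell in Mock against Parental. PSTK, the kinase that acts on the selenocysteine transfer RNA, rose in both clones (0.31 and 0.38, 0.0111 and 0.00341), the clone I call ending under centring (0.0541). The largest called change in clone I against Mock was the fall of SELENOM (-0.37, 0.017), lost without Mock replicate 2 (0.064) or clone I replicates 1 (0.0592) or 2 (0.0641). TRNAU1AP fell there too (-0.29, 0.00482), a call that ended with the mean of its probe sets (0.473). SELENOW fell in clone II against Mock (-0.33, 0.0121), lost in a fit of the compared groups alone (0.059). SCLY, selenocysteine lyase, was higher in Mock than in Parental by 0.34 (0.00286), a call that ended with the mean of its probe sets (0.138).

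The arrays were near one another in level, with Mock slightly apart. Array medians ran from 4.25 to 4.28 in Mock and from 4.30 to 4.39 elsewhere. The interquartile range was 3.38 to 3.43 in Mock and 3.19 to 3.31 elsewhere. CXCR4 was lower than in Mock by -1.12, -1.07 and -1.49 in clone I and -1.38, -1.24 and -1.96 in clone II by its 3 probe sets. Of 9 ovarian epithelial markers, 7 were above the array median on every array and MUC16 was below it. Leukocyte markers PTPRC, CD14 and LYZ, fibroblast markers COL3A1, LUM and PDGFRB and endothelial markers CDH5 and KDR were below the median on every array, while CD3E, COL1A1, DCN, PECAM1 and VWF were above it.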

How the data were processed

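Deposited values are log2 signals, which the authors made with RMA under R 2.6.0 per the submitters' processing notes; RMA is a multi-array method that compresses differences between dim probe sets. Total RNA (6 µg an array) was labelled with biotin per the labels. The sources used here do not give the background step or chip definition. Of 54675 probe sets, 41097 carried 1 symbol, 1801 several and 11777 none. Across all genes, limma 3.58.1 (R 4.3.3) was fitted with lmFit and eBayes, a mean per group and all 12 arrays, and gave log2 differences, standard errors (SE) and Benjamini-Hochberg adjusted p-values. The fit was checked on simulated data. Members and lists were chosen with earlier results of these data known. Members called at 1.5-fold or more, or alike in both clones against Mock, are given on every array; other lists are counted, with up to 3 of their most changed called genes named per comparison. Correlations between the deviations of same-numbered arrays ran from -0.109 to 0.148, and no replicate block was used in the main fit. Those above 0.1 were Parental with Mock at number 1 (0.122) and clone I with Mock at number 2 (0.148). Alternatives were other probe set choices, normalizations, filters and fits, and each array left out. The number of arrays limits the precision. Promoter letters were searched with Python 3.11.15.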

Additional observations from a re-analysis of the deposited data

Results flagged for a closer look

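The 5 members below differed between clone I and clone II by the limma test of that difference itself. That test compared the clones directly, and the control arrays added only to its estimate of the spread. It called 7.15% of all genes and 12.9% of the bright ones. The values against Mock below share the Mock arrays. SELENOP differed by 1.84, being higher than in Mock in clone I (1.02) and lower in clone II (-0.82). GPX2 differed by 0.54 and was higher than in Mock in both. MGST3 differed by 0.38, with 0.08 in clone I and -0.30 in clone II against Mock. PGD differed by -0.36, with -0.46 in clone I and -0.10 in clone II against Mock. NQO1 differed by 0.25, with 0.10 and -0.15 against Mock, neither of which passed.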

How the results depend on the processing

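Of the 60 member calls over the 6 comparisons, none changed sign as a call when each array was left out in turn: 288 of 360 were kept, 72 were lost and 7 were gained. With the replicate number as a block, 56 calls were kept, 4 lost and 1 gained. The lost calls were TXNRD1 in clone I against Mock, CAT in clone II against Mock, NQO1 between the clones and TXN in clone II against Parental. The labels give no shared origin for arrays of the same number. Quantile normalization kept 57 and gained 16, centring kept 50, a trended robust variance kept 60 and gained 32, the mean of the probe sets kept 44, fitting the compared groups alone kept 51, adjusting over all probe sets kept 55, and the filter at a mean of 6 kept 47 of 47 and gained 30. Without _x_at and _s_at probe sets, 40 of the 50 calls that could be read were kept, and these values changed sign or became calls of the other sign: SELENOP in Mock against Parental 0.12, TXN in clone II against Parental -0.17, TKT in clone II against Mock -0.40 and in clone I against Parental -0.29, MGST1 in clone II against Parental -0.37, and AKR1C1 0.11 and 0.14 in clones I and II against Mock; the cause was not tested.

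Counts of members called outside 1.5 times the reported ones were as follows, with causes not tested except where a filter or fold requirement sets them. Clone I against Mock, 5 higher: 3 without _x_at and _s_at or with centring, 8 with the filter or trend, 9 with quantile normalization, and 2 at 1.5-fold or more, where 0 of the 4 lower stayed. Clone II against Mock, 5 higher: 8 with the filter, 9 with quantile normalization or trend, 3 with centring or the groups alone, and 1 at 1.5-fold; of 6 lower, 2 without _x_at and _s_at and 2 at 1.5-fold. Mock against Parental: 2 higher without _x_at and _s_at, and 3 lower at 1.5-fold. Clone I against clone II: higher 1 without _x_at and _s_at, 8 with trend and 1 at 1.5-fold; lower 0 with the mean of probe sets, 4 with the filter, 3 with trend and 0 at 1.5-fold. Clone I against Parental: higher 8 with the filter, quantile normalization or trend, 7 with the groups alone and 2 at 1.5-fold; lower 3 at 1.5-fold. Clone II against Parental: higher 2 with centring or the groups alone and 1 at 1.5-fold; lower 2 at 1.5-fold. Both clones against Mock: higher 6 with the filter, quantile normalization or trend, 1 with centring, the groups alone or 1.5-fold; lower 1 with the filter and 0 at 1.5-fold.

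With single arrays left out, the counts higher and lower ran from 3 to 5 and 3 to 4 in clone I against Mock, 3 to 6 and 5 to 7 in clone II against Mock, 1 to 2 and 6 to 7 in Mock against Parental, 3 to 5 and 0 to 1 between the clones, 3 to 4 and 6 in clone I against Parental, 1 to 3 and 7 to 9 in clone II against Parental, and 1 to 4 and 1 to 2 in both clones against Mock. With 3 arrays a group the precision is limited, and AKR1B10, AKR1C3 and GPX3 were dim throughout.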
